A study of Mus musculus with 8 samples.

Results

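The genes described here carry iron into heart cells, store it, release it and sense it. They are 9 of the 30153 genes listed for each heart library, chosen by name: Tfrc and Slc11a2 for uptake, Fth1, Ftl1 and Ncoa4 for storage, Slc40a1 for export, Aco1 and Ireb2 for sensing, and Hmox1 for the release of iron from haem. All 9 names matched a single row of the file and all 9 reached the level needed for testing, which was 1 TPM or more in 4 or more of the 8 libraries. TPM is transcripts per 1000000 transcripts, a level already divided by transcript length.

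The hearts came from aged mice of strain C57/BL6 that overexpress the human angiotensin type 1 receptor in its haplotype II form, in both groups. The control group holds 4 libraries of such aged mice, and the western diet group holds 4 libraries of aged mice of this kind fed a western diet, which supplies much fat and sugar. The labels used here give no promoter for the human gene, no sex, exact age or length of feeding, and leave it unsaid whether libraries come from separate animals. The p-values therefore cover only the spread among these libraries, which may be technical. The comparison asks how heart transcripts differ with the diet in these mice.

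A cell takes up iron as transferrin-bound iron through the transferrin receptor (Tfrc), which is internalised, and the divalent metal transporter (Slc11a2) moves the released iron out of the endosome. Surplus iron is laid down in ferritin, a hollow shell of heavy (Fth1) and light (Ftl1) chains, and leaves the cell only through ferroportin (Slc40a1). When iron is short, the iron regulatory proteins encoded by Aco1 and Ireb2 bind a hairpin called the iron-responsive element: in the 5′ UTR of ferritin and ferroportin transcripts this blocks translation, and in the 3′ UTR of the Tfrc transcript it protects the RNA from decay. In heart muscle iron serves myoglobin and the respiratory chain.

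The elements are shown because their place divides the members in which one was found. Iron is known to set the level of the Tfrc transcript. In the other members with an element found, iron acts mainly on translation, which RNA levels do not show. Annotated protein-coding transcripts (GENCODE vM21, GRCm38) were searched for a C, 5 bases, the loop CAGTGN and 5 bases that pair with the first 5, G with T allowed. Of the 9 members 4 held such an element, as did 1.34% of the 21901 protein-coding genes. The sequences run 5′ to 3′ as DNA letters, and capitals mark the 6 bases of the loop.
Fth1, 5′ UTR, chr19:9982732-9982760, plus strand: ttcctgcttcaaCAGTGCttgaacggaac
Ftl1, 5′ UTR, chr7:45459779-45459807, minus strand: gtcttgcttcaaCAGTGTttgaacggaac
Slc40a1, 5′ UTR, chr1:45925465-45925493, minus strand: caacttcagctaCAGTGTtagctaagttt
Tfrc, 3′ UTR, chr16:32631219-32631247, plus strand: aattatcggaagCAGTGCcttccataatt
Tfrc, 3′ UTR, chr16:32631598-32631626, plus strand: cattatcgggagCAGTGTcttccataatg
Tfrc, 3′ UTR, chr16:32631663-32631691, plus strand: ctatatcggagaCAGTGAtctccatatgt
Tfrc, 3′ UTR, chr16:32631710-32631738, plus strand: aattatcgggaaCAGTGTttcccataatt

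The Tfrc transcript held 4 elements, all downstream of its coding part, and Fth1, Ftl1 and Slc40a1 held 1 each upstream of theirs. No match to these letters was found in the coding transcripts of Slc11a2, Ncoa4, Aco1, Ireb2 or Hmox1. The search required all 5 stem bases to pair, so an element with an imperfect stem would be missed. Promoter windows of 300 bases (250 before and 50 after the start, RefSeq, GRCm38.p6) were at hand for 6 of the members and were searched on both strands for TGACNNNGC, the core letters of the antioxidant response element. The match was found in 1 of their 10 windows, an alternative start of Ncoa4, and in 12.4% of all 32851 windows. Hmox1, Slc40a1 and Slc11a2 had no window, so their promoters were not searched, nor was sequence outside the windows of the other members.

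**Figure D1:**
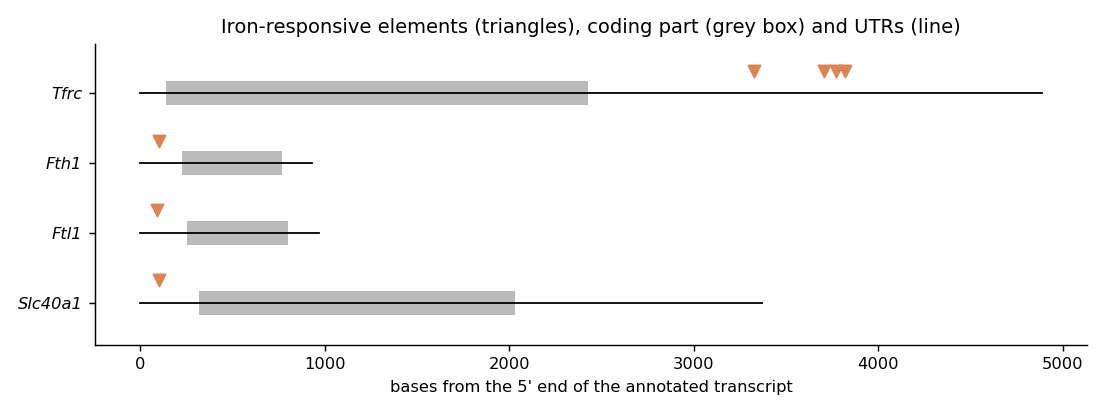
Position of the iron-responsive elements (triangles) along the annotated transcripts of the 4 members that hold one, in bases from the 5′ end. The grey box is the coding part and the line the UTRs. The 4 elements of Tfrc lie downstream of the coding part, and the single elements of Fth1, Ftl1 and Slc40a1 lie upstream of it.

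The libraries differed in ways that the diet label does not describe. Y-linked transcripts (Eif2s3y, Ddx3y, Uty and Kdm5d) summed to 38.6 to 52.6 TPM in the controls. Western diet replicate 4 had 41.3 TPM of them, whereas the other 3 western diet libraries had 0.227 to 0.270 TPM. The labels give no sex, and 3 of the 4 western diet libraries differ from every control in these transcripts, so the diet and whatever sets them cannot be told apart in those libraries. Whether each sample is as labelled was not tested. Atrial transcripts (Myl7 of at least 100 TPM) marked control replicates 1 and 3 and western diet replicate 2. Kidney markers summed to at most 0.744 TPM in the controls, against 9.46 to 79.3 TPM with western diet. The 12 heart muscle markers, among them Myh6, Tnnt2, Actc1 and Ryr2, summed to 53414 to 65783 TPM, so the defining markers of heart muscle were present. Because TPM keeps no read depth, the depth of each library is unknown and no counting error is given.

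No iron gene passed the test of western diet against control. With limma on log2(TPM + 1), 0 of the 9 had an adjusted p under 0.05, where 0.301% of all 10969 genes tested did. At an unadjusted p under 0.05 there were 3, Slc40a1, Ftl1 and Hmox1, all higher with western diet, against 9.20% of all genes. The groups did not overlap for 1 of the 9, Slc40a1, against 4.85% of all genes with every western diet library above every control. The mean log2 value was higher with western diet for 7 of the 9, against 66.4% of all genes, and the median log2 fold change was 0.10 for the 9 and 0.06 for all genes. All fold changes refer to log2(TPM + 1), which understates the change of low genes.

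**Figure D2:**
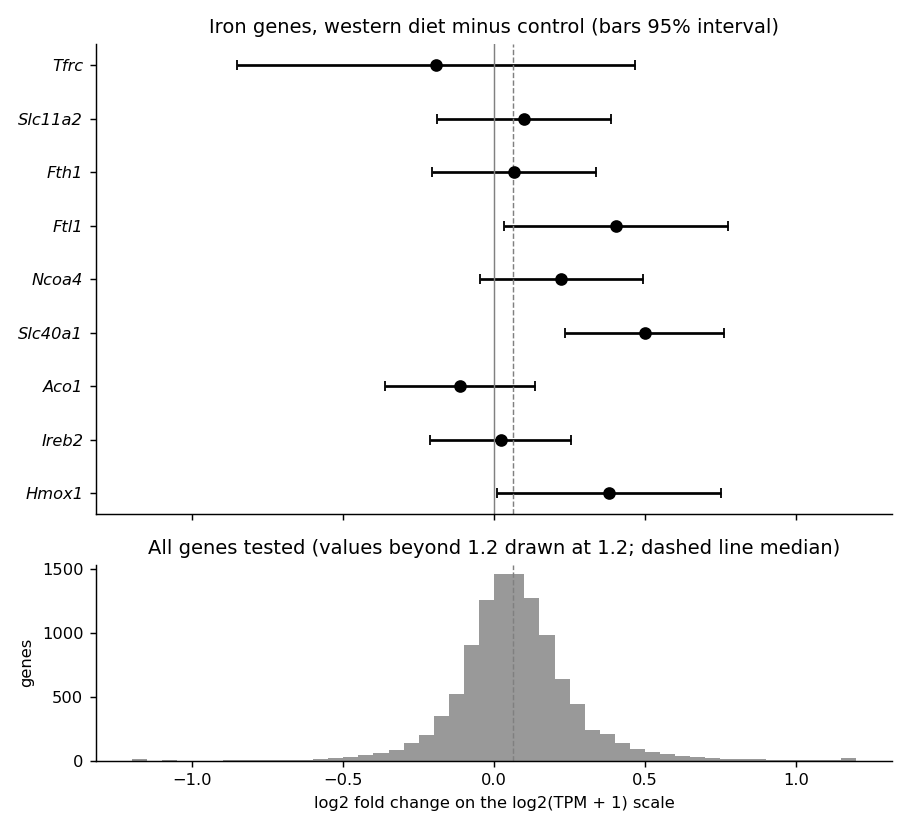
Top, log2 fold change of each iron gene (western diet minus control, on the log2(TPM + 1) scale; bars are 95% intervals from limma). Bottom, the same value for all 10969 genes tested. The intervals of Slc40a1, Ftl1 and Hmox1 lie above 0 before adjustment, and that of Tfrc is the widest, from -0.85 to 0.47.

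The levels of the 9 transcripts spanned a wide range. Fth1 was the most abundant, and only 0.465% of the genes tested had a higher mean. Ftl1 followed (2.22% of genes higher), then Ncoa4 (16.9%) and Tfrc (23.8%). Aco1, Slc11a2, Slc40a1, Ireb2 and Hmox1 lay near the middle of the genes tested, with 40.5% to 62.9% of genes higher. From Ncoa4 downwards, each gene's range over the 8 libraries overlapped that of the next gene in this order. These ranges ignore that all genes were measured in the same libraries, so they do not settle the order within a library. The ranges of Fth1, Ftl1 and Ncoa4 did not overlap.

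Slc40a1 (ENSMUSG00000025993, chromosome 1, 45908068 to 45926523) encodes ferroportin, the only known exporter of iron from cells. Its level was 6.34, 5.32, 7.12 and 5.72 TPM in control replicates 1 to 4, and 10.1, 10.1, 8.23 and 7.88 TPM in western diet replicates 1 to 4. Every western diet library lay above every control. The mean was 9.08 ± 1.19 TPM with western diet and 6.12 ± 0.788 TPM in control (SD, n = 4 per group), a ratio of 1.48 and a log2 fold change of 0.50 (SE 0.12, limma adjusted p = 0.126). With limma's library weights it passed, at 0.54 (SE 0.11, limma adjusted p = 0.0486). With a model term for the Y-linked transcripts it was 0.32, a value that sets western diet replicate 4 alone against the controls. The SD of its log2 values was 0.16 in control and 0.17 in western diet, close to the median gene tested (0.14 and 0.17).

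Macrophages, which recycle iron from red cells, are rich in ferroportin, and kidney expresses it too. Of the 18 macrophage markers 14 were tested, 13 had the higher mean with western diet (66.4% of all genes did), 0 passed the adjusted threshold and 5 had an unadjusted p under 0.05 (11.7% of all genes). These 5, C1qa, C1qb, Lyve1, Cd14 and Folr2, were above every control in all 4 western diet libraries, as were 4.85% of all genes. The tested marker with the lower mean was Cx3cr1, at 1.06 TPM with western diet and 1.17 TPM in control. Of the markers too low to be tested, Ccr2, Timd4 and Spic had the lower mean with western diet and Fcgr1 the higher. The summed level of the list was 125 to 155 TPM in control and 152 to 253 TPM in western diet. The defining markers Cd68, Csf1r, Adgre1 and C1qa were present in all libraries. Markers differed within 1 library: in western diet replicate 4 the sum, 161 TPM, was above every control, and Csf1r, the receptor that macrophages need for survival, was at 7.14 TPM, below the 7.44 TPM of the lowest control. The same library held the highest kidney marker sum, 79.3 TPM, and the lowest Slc40a1 of its group. The part of either cell source in the Slc40a1 difference was not tested. In these bulk samples, fewer cells of a type and less RNA per cell cannot be told apart.

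Ftl1 (ENSMUSG00000050708, chromosome 7, 45457944 to 45459884) encodes the ferritin light chain, which helps form the iron core. Its level was 274, 259, 291 and 263 TPM in control replicates 1 to 4, and 511, 399, 268 and 305 TPM in western diet replicates 1 to 4. Western diet replicates 1, 2 and 4 were above every control and replicate 3 lay among them. The means were 371 ± 108 and 272 ± 14.5 TPM (SD, n = 4 per group), and the log2 fold change was 0.40 (SE 0.17, limma adjusted p = 0.392). It was 0.23 without western diet replicate 1 and 0.54 without replicate 3.

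Fth1 (ENSMUSG00000024661, chromosome 19, 9980598 to 9985098) encodes the heavy chain, which oxidises iron for storage. Its level was 1323, 1300.1, 1243 and 1340.2 TPM in the controls, and 1637, 1478, 1320.3 and 1074 TPM in western diet replicates 1 to 4. Replicates 1 and 2 were above every control, replicate 3 lay among them and replicate 4 was below every control. The log2 fold change was 0.07 (SE 0.12, limma adjusted p = 0.886; 95% interval -0.21 to 0.34). Its sign turned without western diet replicate 1, to -0.023.

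The heavy and light chains did not keep a fixed proportion. The ratio of Fth1 to Ftl1 in TPM was 4.82, 5.02, 4.27 and 5.10 in the controls and 3.21, 3.70, 4.92 and 3.52 in western diet replicates 1 to 4. It was below every control in western diet replicates 1, 2 and 4. Ferritin has many processed copies in the genome, with 9 annotated copies of Ftl1 at 90% identity or more. The 6 of them with a row in the file reached at most 0.496 TPM, and adding pseudogene rows to Ftl1 left its log2 fold change at 0.40. The closest full-length copy, Ftl1-ps1, was not analysed here. Fth1 and Ncoa4 each had 1 annotated copy, at no more than 0.375 and 0.262 TPM. How reads were shared between copies was not tested.

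Ncoa4 (ENSMUSG00000056234, chromosome 14, 32159865 to 32179855) encodes the receptor that carries ferritin to the lysosome so that its iron can be used again. Its level was 26.2, 21.9, 33.1 and 28.4 TPM in the controls, and 29.6, 33.4, 35.4 and 29.3 TPM in western diet replicates 1 to 4. The groups overlapped, with a log2 fold change of 0.22 (SE 0.12, limma adjusted p = 0.520). Western diet replicate 3, which held the least Ftl1 of its group, held the most Ncoa4. In the controls, replicate 3 held the most of both and replicate 2 the least of both.

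Tfrc (ENSMUSG00000022797, chromosome 16, 32608920 to 32632794) was the member with the widest spread. Its level was 17.3, 19.9, 20.9 and 22.7 TPM in the controls, and 8.99, 17.9, 35.8 and 15.8 TPM in western diet replicates 1 to 4. Western diet replicates 1 and 4 were below every control, replicate 3 was above every control and replicate 2 lay among them. The highest western diet library held 3.98 times as much as the lowest, against 1.31 times in control. The SD of log2 values was 0.77 in western diet, where 1.10% of the genes tested had a larger one, and 0.16 in control, where 43.4% did. Group means were close, at 19.6 ± 11.4 and 20.2 ± 2.24 TPM (SD, n = 4 per group), with a log2 fold change of -0.19 (SE 0.30, limma adjusted p = 0.856). Without western diet replicate 1 the value was 0.10 and without replicate 3 it was -0.52.

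**Figure D3:**
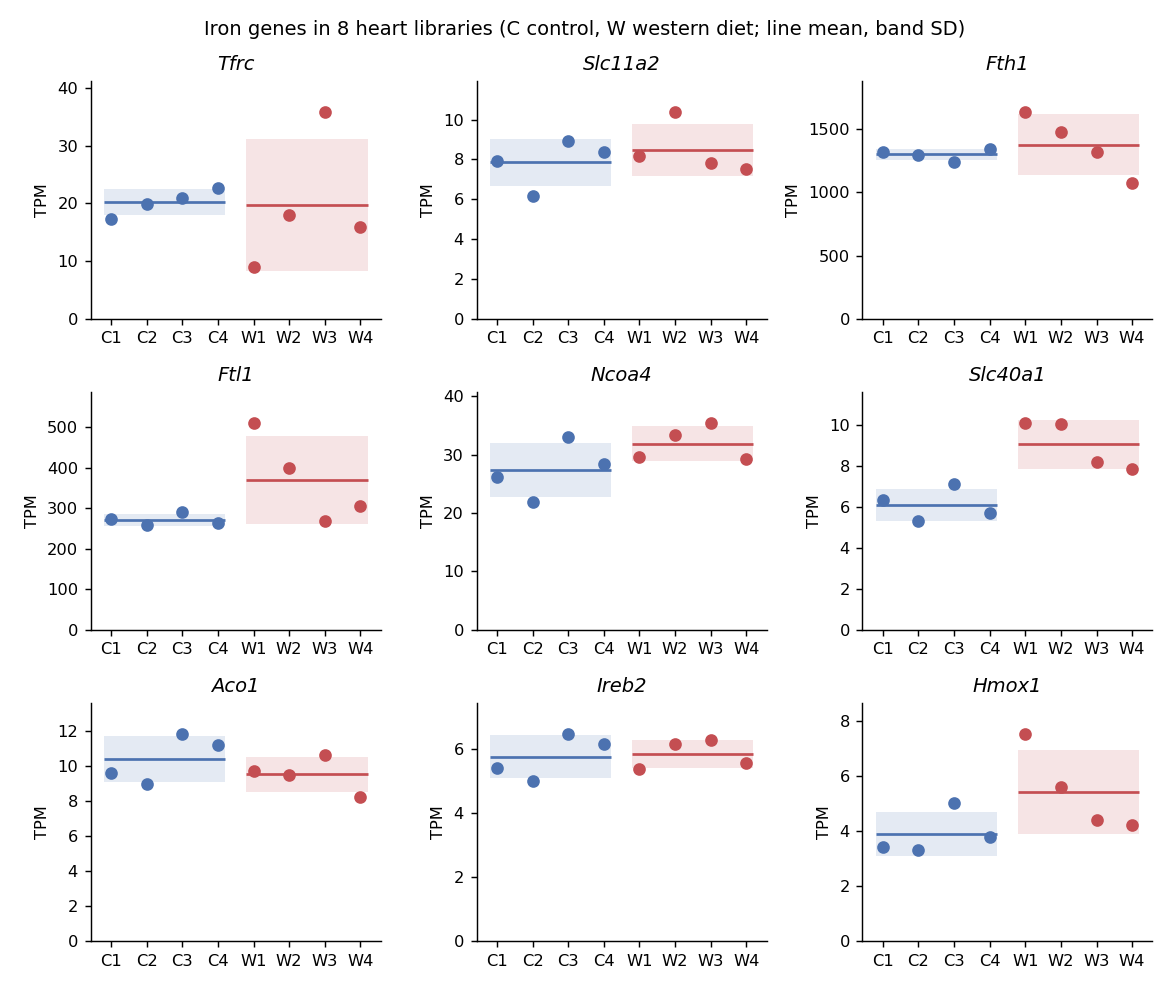
TPM of the 9 iron genes in each library (C1 to C4 control replicates, W1 to W4 western diet replicates). Lines are group means and bands are SD. Slc40a1 is higher in all 4 western diet libraries, and Tfrc runs from 8.99 to 35.8 TPM within that group.

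Slc11a2 (ENSMUSG00000023030, chromosome 15, 100387898 to 100425072), the divalent metal transporter, did not show this spread. Its level was 7.93, 6.19, 8.92 and 8.37 TPM in the controls, and 8.17, 10.4, 7.80 and 7.53 TPM in western diet replicates 1 to 4. Only replicate 2 lay above the controls, and the log2 fold change was 0.10 (SE 0.13, limma adjusted p = 0.822; 95% interval -0.19 to 0.39). The file gives 1 value per gene, so its transcript forms with different 3′ ends were not separated here.

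The 2 iron regulatory proteins showed no difference beyond the spread between libraries. Aco1 (ENSMUSG00000028405, chromosome 4, 40143081 to 40198338) encodes a protein that is a cytosolic aconitase when it holds an iron-sulphur cluster and binds RNA when it does not. It was at 9.61, 8.97, 11.8 and 11.2 TPM in the controls and 9.70, 9.50, 10.6 and 8.25 TPM in western diet replicates 1 to 4 (log2 fold change -0.11, SE 0.11, limma adjusted p = 0.752). Ireb2 (ENSMUSG00000032293, chromosome 9, 54863789 to 54912530) encodes the second protein, which is degraded when iron is plentiful. It was at 5.43, 5.02, 6.47 and 6.18 TPM in the controls and 5.39, 6.17, 6.31 and 5.57 TPM in western diet replicates 1 to 4 (log2 fold change 0.02, SE 0.11, limma adjusted p = 0.962; 95% interval -0.21 to 0.26). Both varied in parallel in the controls, where the ratio of Aco1 to Ireb2 was 1.77, 1.79, 1.83 and 1.81. In western diet replicates 1 to 4 the ratio was 1.80, 1.54, 1.69 and 1.48, below every control in replicates 2, 3 and 4.

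Hmox1 (ENSMUSG00000005413, chromosome 8, 75093621 to 75100589) encodes haem oxygenase 1, the inducible enzyme that frees iron from haem. Its level was 3.40, 3.29, 5.01 and 3.79 TPM in the controls, and 7.50, 5.57, 4.37 and 4.21 TPM in western diet replicates 1 to 4. Replicates 1 and 2 were above every control and the other 2 lay within the control range. The means were 5.41 ± 1.52 and 3.87 ± 0.789 TPM (SD, n = 4 per group), with a log2 fold change of 0.38 (SE 0.17, limma adjusted p = 0.419). Without western diet replicate 1 it was 0.24.

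Within the western diet group, replicates 1 and 3 stood at opposite ends for Tfrc and Ftl1. Western diet replicate 1 held the most Ftl1, Fth1 and Hmox1 and the least Tfrc of all 8 libraries, and replicate 3 held the most Tfrc and the least Ftl1 of its group. Fth1 and the ferritin sum were lowest in replicate 4, and Slc11a2 was highest in replicate 2. Ncoa4 was highest in replicate 3, as Tfrc was, and lowest in replicate 4. None of these other uptake and storage genes had both its ends in replicates 1 and 3. The sum of both ferritin chains was 239 times the Tfrc level in replicate 1, 105 times in replicate 2, 44.4 times in replicate 3 and 87.1 times in replicate 4. In the controls it was 92.2, 78.2, 73.4 and 70.6 times. The western diet libraries thus lay on both sides of the control range.

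Red cell and macrophage transcripts moved with the same libraries. Haemoglobin transcripts (Hba-a1, Hba-a2, Hbb-bs and Hbb-bt summed) were at 14208, 5266, 1967 and 2493 TPM in western diet replicates 1 to 4, and at 2369 to 4442 TPM in the controls. Their order within the western diet group, replicates 1, 2, 4 and 3 from high to low, was the order of Ftl1. Fth1 and Hmox1 were also highest in replicates 1 and 2 but were lowest in replicate 4, so their order differed from that of haemoglobin. In the controls haemoglobin was highest in replicate 1 and Ftl1 in replicate 3, so there the order of Ftl1 differed too. Transcripts of complement C1q (C1qa, C1qb and C1qc summed) are made by macrophages. They were at 189, 119, 107 and 117 TPM in western diet replicates 1 to 4, and at 87.0 to 106 TPM in the controls. Within each group their order was that of Ftl1. Of the 12 red cell markers 7 were tested, and 6 had the higher mean with western diet (66.4% of all genes did). With limma 0 passed the adjusted threshold and 1, Sptb, had an unadjusted p under 0.05 (11.7% of all genes). Sptb was at 17.3, 24.2, 17.4 and 18.5 TPM in western diet replicates 1 to 4, an order unlike that of haemoglobin. Slc4a1, the anion exchanger of the red cell membrane, was highest in western diet replicate 1, at 1.80 TPM, with at most 0.404 TPM in the other 7 libraries. The part of these cells in the ferritin, Hmox1 and Tfrc levels was not tested.

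**Figure D4:**
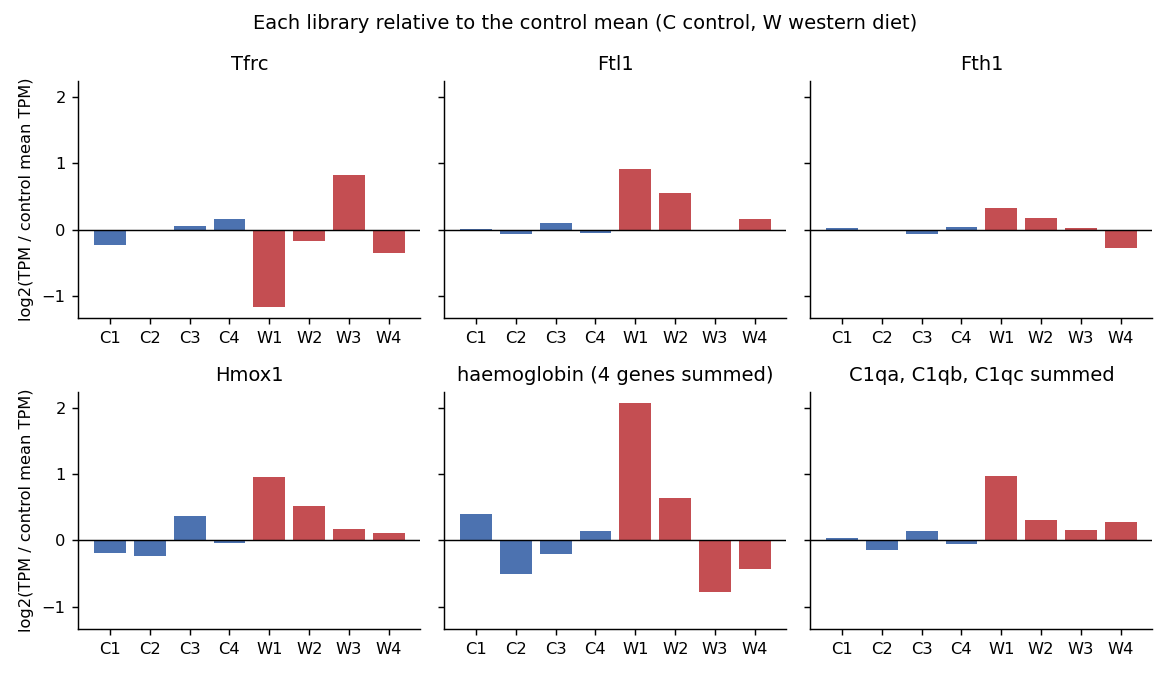
Level of each library relative to the control mean, as log2 of the TPM ratio, for 4 iron genes, summed haemoglobin and summed C1q transcripts (C1 to C4 control, W1 to W4 western diet replicates). In W1 Tfrc is lowest while Ftl1, Fth1, Hmox1, haemoglobin and C1q are highest, and in W3 Tfrc is highest and haemoglobin lowest.

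Genes with the most similar pattern over the 8 libraries were found by Pearson r of log2(TPM + 1) among 10537 named genes, as a description. For Slc40a1 these were Adipor2, an adiponectin receptor (r = 0.990), Kat2a, a histone acetyltransferase (r = 0.982), and Ccdc90b, a mitochondrial coiled-coil protein (r = 0.980), and 39 genes exceeded 0.95. Without the libraries farthest from the median, control replicate 2 and western diet replicate 1, the 3 values were 0.995, 0.972 and 0.985. For Tfrc they were Zfp605, a zinc finger gene (r = 0.994), Ddx39, an RNA helicase (r = 0.944), and Trib2, a pseudokinase (r = 0.923), and 1 gene exceeded 0.95. Zfp605 was at 0.575, 1.003, 1.59 and 0.896 TPM in western diet replicates 1 to 4 and at 0.976 to 1.13 TPM in the controls. Without western diet replicates 1 and 3, the values for Tfrc were 0.969, 0.713 and 0.837, so the likeness of Ddx39 rests largely on those libraries.

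The wider pathway was read from 9 lists of 143 genes, of which 121 were tested. With limma 0 passed the adjusted threshold and 17 had an unadjusted p under 0.05, 14.05% against 11.7% of all genes. The mean was higher with western diet for 83 and lower for 38, which is 68.6% higher, near the 66.4% of all genes. The median log2 fold change was 0.05 against 0.06 over all genes. The counts of higher and lower genes in each list below stand beside that same 66.4%. Values are given as mean ± SD for western diet and then control.

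Of the import and carrier genes 13 of 22 were tested, of which 10 were higher and 3 lower, at a median log2 difference of 0.08. Lcn2, a lipocalin that binds iron carried by siderophores, was at 3.501 ± 0.756 and 1.73 ± 0.350 TPM, with no overlap of the groups (limma adjusted p = 0.0652). Lcn2 is also a product of neutrophil granules, and the 8 neutrophil markers summed to 9.67 to 18.2 TPM with western diet and 4.31 to 8.46 TPM in control. Of the 2 that were tested, S100a8 passed the test, at 3.83 ± 1.19 and 1.34 ± 0.343 TPM (limma adjusted p = 0.0319). S100a9 did not, at 6.84 ± 2.19 and 3.27 ± 1.26 TPM (limma adjusted p = 0.135). S100a8 and S100a9 made up most of the sum in every library. Ly6g, another neutrophil marker, was found only in western diet replicate 1, at 0.244 TPM. The part of neutrophils in the Lcn2 level was not tested. Slc39a14, which imports iron not bound to transferrin, was at 14.7 ± 3.23 and 11.7 ± 1.44 TPM (limma adjusted p = 0.468). Snx3, which helps recycle the transferrin receptor to the cell surface, was at 69.8 ± 8.28 and 61.5 ± 3.31 TPM (limma adjusted p = 0.522).

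Of the export and hepcidin genes 8 of 14 were tested, with 6 higher and 2 lower, none with an unadjusted p under 0.05. Bmp6, the ligand that drives hepcidin production in liver, was at 7.46 ± 1.001 and 6.11 ± 0.720 TPM (limma adjusted p = 0.453). Hamp, hepcidin itself, which makes cells degrade ferroportin, was chosen for mention after its values were seen and was too low in most libraries to be tested. It was at 3.80, 0.322, 13.3 and 0 TPM in control replicates 1 to 4, and at 0, 0.742, 0 and 0.165 TPM in western diet replicates 1 to 4. The libraries with the most Hamp, control replicates 3 and 1 and western diet replicate 2, were those with atrial transcripts, with Myl7 at 1403, 184 and 335 TPM. Control replicate 3 also held the most transcript of the liver gene Alb, 6.83 TPM, and the part of other tissue in the Hamp level was not tested.

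Of the genes of iron sensing and ferritin turnover 11 of 12 were tested, with 7 higher and 4 lower and a median of 0.05. Zfp36, an mRNA decay factor, was at 6.18 ± 2.26 and 3.68 ± 0.874 TPM (limma adjusted p = 0.358). Fbxl5, which targets the Ireb2 protein for degradation when iron is present, had an adjusted p of 0.905 in limma and ranged from 12.8 to 17.1 TPM with western diet and from 10.9 to 18.3 TPM in control.

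All 12 haem synthesis genes were tested, with 6 higher and 6 lower and a median of -0.02. Cpox, coproporphyrinogen oxidase, was at 12.4 ± 1.17 and 9.01 ± 1.03 TPM with no overlap of the groups (limma adjusted p = 0.140). Alas1, the first enzyme of the pathway outside red cells, was at 84.6, 98.8, 121 and 86.3 TPM in western diet replicates 1 to 4 and 104 to 115 TPM in control, so that its lowest and highest western diet libraries were those of Tfrc. Its red cell counterpart Alas2, which is also in the red cell list, was at 48.0, 16.9, 8.40 and 6.92 TPM in western diet replicates 1 to 4 and 9.20 to 14.1 TPM in control. Of the haem breakdown and transport genes 13 of 15 were tested, with 8 higher and 5 lower, and Bach1, the repressor of Hmox1, was at 5.17 ± 0.896 and 3.95 ± 0.640 TPM (limma adjusted p = 0.398).

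All 27 genes of mitochondrial iron and iron-sulphur clusters were tested, with 16 higher and 11 lower and a median of 0.03. Iba57, which helps assemble clusters in mitochondria, was at 8.22 ± 0.944 and 5.43 ± 0.207 TPM with no overlap of the groups (limma adjusted p = 0.0696). Next by p-value were Isca1, another cluster assembly factor, at 149 ± 10.1 and 136 ± 6.06 TPM (limma adjusted p = 0.568) and the mitochondrial iron importer Slc25a37 at 3.42 ± 0.807 and 2.77 ± 0.444 TPM (limma adjusted p = 0.598).

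The remaining 3 lists hold NRF2 targets, ferroptosis genes and hypoxia targets. The first holds targets of NRF2, the oxidant-sensing factor known to induce Hmox1 and both ferritins. It also holds Nfe2l2, which encodes NRF2, and Keap1, its inhibitor. Of its 14 tested genes 13 had the higher mean, Nfe2l2 and Keap1 among them, against 66.4% of all genes. The median log2 fold change was 0.13 against 0.06. Among the 13, Gsta4, Gclm and Prdx1 were near 0, at 0.0006, 0.014 and 0.015. The gene with the lower mean was Nqo1, a quinone reductase, at 37.3 ± 4.81 and 39.1 ± 2.35 TPM (limma adjusted p = 0.835). Me1, malic enzyme, was at 70.1 ± 5.56 and 51.6 ± 4.54 TPM (limma adjusted p = 0.0823) and Srxn1, sulfiredoxin, at 10.1 ± 1.10 and 7.48 ± 0.333 TPM (limma adjusted p = 0.158). Of 11 tested genes of ferroptosis, the iron-dependent death by lipid peroxidation, 8 were higher and 3 lower. Chac1, which breaks down glutathione, was at 2.26 ± 0.713 and 1.09 ± 0.212 TPM (limma adjusted p = 0.148), and the lipoxygenase Alox12 at 1.698 ± 0.1001 and 2.39 ± 0.239 TPM (limma adjusted p = 0.223). Of 12 tested hypoxia targets, a group to which Tfrc and Hmox1 are also known to belong, 9 were higher and 3 lower, and 7 had an unadjusted p under 0.05, 5 higher and 2 lower, against 11.7% of all genes in either direction. The 2 lower ones were the glucose transporter Slc2a1, at 4.83 ± 0.889 and 6.04 ± 0.354 TPM (limma adjusted p = 0.417), and hexokinase 2 (Hk2), at 59.7 ± 3.46 and 70.4 ± 4.83 TPM (limma adjusted p = 0.303), both with no overlap of the groups. Egln3, an oxygen sensor that itself needs iron, was at 44.4 ± 5.25 and 26.97 ± 4.46 TPM (limma adjusted p = 0.0630), and P4ha1, a collagen prolyl hydroxylase that also needs iron, at 21.3 ± 1.97 and 14.2 ± 2.75 TPM (limma adjusted p = 0.121).

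**Figure D5:**
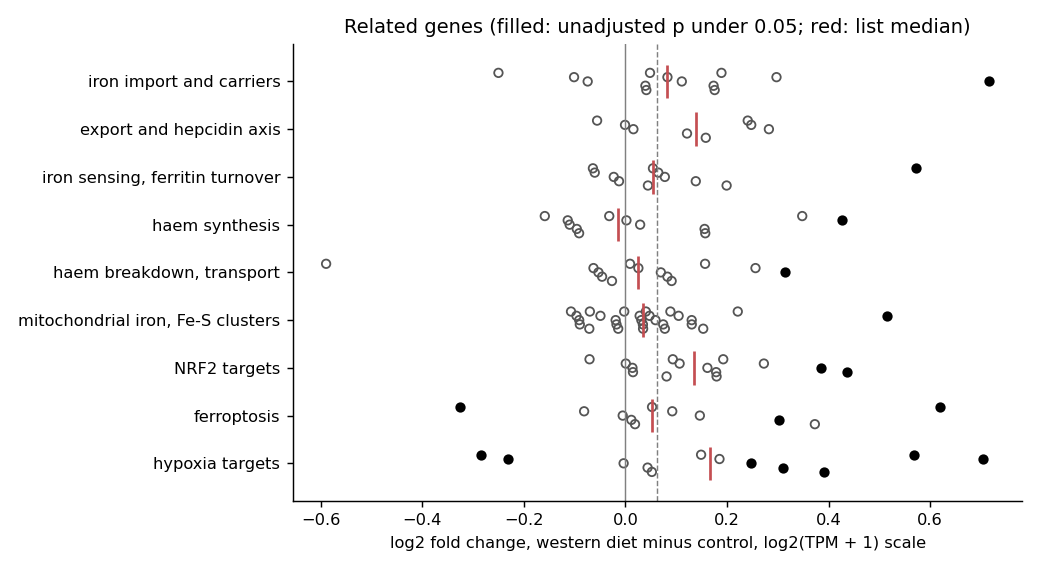
Log2 fold change (western diet minus control, log2(TPM + 1) scale) of the tested genes in 9 related lists. Each circle is a gene, filled where the unadjusted limma p is under 0.05; red lines are list medians and the dashed line is the median of all genes tested. List medians run from -0.02 for haem synthesis to 0.17 for hypoxia targets.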

How the data were processed

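The authors deposited gene-level TPM for 8 heart libraries; per the submitters' processing notes kallisto, DESeq2 and GRCm38 were used, without versions or roles, and the annotation release is not given in the sources used here. RNA was enriched for polyadenylated transcripts, per the labels' protocols. The columns sum to 941318 to 953448. Names, coordinates and transcripts were taken from GENCODE vM21 (GRCm38), which named 29732 of 30153 rows, and copies were found with BLAST 2.17.0 (at least 90% identity over at least 50% of the copy). The 10969 genes reaching 1 TPM in 4 or more libraries entered limma 3.58.1 (R 4.3.3) as log2(TPM + 1). Group was the only term, the prior followed mean level, tests were two-sided, and p-values were adjusted by Benjamini-Hochberg over these genes. Lists are described by counts and medians, with no test. On simulated data 90.0% of 2-fold and 98.8% of 4-fold changes in TPM + 1 were recovered, and 4.29% of calls were false. The simulated noise was independent for each gene and held none of the library differences described above. Smaller changes were not simulated, and the largest log2 fold change of an iron gene was 0.50. The recovery of changes of that size is therefore not known.

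The members, lists, alternatives and the naming rule were chosen with earlier results of these data known. The rule names the 9 members, up to 4 genes of smallest p from each list, the first 4 markers of each marker list, and the 3 genes most like the members with the largest rise and fall. Hamp, Fbxl5, Nqo1, Slc2a1, Hk2, and the haemoglobin and C1q sums with their members Hba-a2, Hbb-bt, C1qb and C1qc, as well as Lyve1, Cd14 and Folr2, were chosen outside the rule, after values were seen. So were Cx3cr1, Ccr2, Timd4, Spic, Fcgr1, Sptb, Nfe2l2, Gsta4, Gclm and Prdx1. Replicate numbers follow accession order and pair nothing. Plots used matplotlib 3.10.9 under Python 3.11.15 (pandas 2.3.3).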

Additional observations from a re-analysis of the deposited data

Results flagged for a closer look

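In 54 sets of 4 libraries (the 9 iron genes, their ratios and the summed marker levels, per group), 8 held 1 library far from the other 3 by Dixon's ratio test, where chance gives about 1 in 20. No iron gene was among them. Western diet replicate 1 stood apart in summed macrophage markers, 253 TPM against 152 to 167, and in their subset C1q, 189 TPM against 107 to 119. Western diet replicate 4 stood apart in kidney markers, 79.3 TPM against 9.46 to 14.5, and in Y-linked transcripts, 41.3 TPM against 0.227 to 0.270. Atrial markers stood out in control replicate 3, 6297 TPM against 109 to 913, and in western diet replicate 2, 1597 TPM against 99.3 to 186. Control replicate 3 also stood apart in adipocyte markers, 61.6 TPM against 26.3 to 26.4, and control replicate 1 in neutrophil markers, 8.46 TPM against 4.31 to 4.88.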

How the results depend on the processing

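No paired analysis was possible because the replicate numbers follow accession order and pair no samples. Iron genes past the threshold were 0 under 21 of 22 alternatives (0 to 0 with each library left out) and 1, Slc40a1, with library weights. With a mean of at least 5 TPM only 8 of the 9 were tested, without Hmox1. Slc40a1 stayed higher with western diet under all 21 alternatives that give it a value, with log2 fold changes of 0.32 to 0.57 and limma adjusted p of 0.0486 to 0.696. Ftl1, Ncoa4 and Hmox1 also stayed higher and Aco1 lower, but sizes moved: with the Y-linked term they were 0.17, 0.11, 0.11 and -0.29, and Ncoa4 was 0.12 without control replicate 2. The median log2 fold change of the 9 genes was 0.03 to 0.18 with each library left out and -0.04 to 0.13 otherwise.

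Signs turned for genes near 0. Fth1 was -0.013 with median-of-ratios scaling, -0.28 with the Y-linked term and -0.023 without western diet replicate 1. Ireb2 was -0.044 with median-of-ratios scaling, -0.062 with quantile normalization, -0.038 with the Y-linked term and -0.033 to 0.070 with each library left out. Slc11a2 was -0.042 with the Y-linked term, and Tfrc was -0.52 to 0.10 with each library left out, higher without western diet replicate 1. The Y-linked term rests on western diet replicate 4 and moved the median of all genes by -0.13. The cause of these changes was not tested.

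Over all genes 33 passed the threshold, against 5 with no filter, 15 with a mean of at least 5 TPM, 61 with quantile normalization, 108 with library weights, 54 with the Y-linked term, 5 without libraries with atrial transcripts, 95 at an adjusted p of 0.10 and 8 to 95 with each library left out. The lowest was without control replicate 4 and the highest without western diet replicate 4. TPM keeps no depth, so counting error could not be set against these differences.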
